A study of Homo sapiens with 4 samples.

Results

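The comparison described here is that of Hep3B cells carrying the hairpin shR-554 against Hep3B cells carrying the mock hairpin shR-MOCK. Hep3B is an established human hepatocellular carcinoma cell line. Members were chosen by sample label, which gave 2 of the 4 arrays of the study, 1 for shR-554 and 1 for the mock. The other 2 arrays, shR-467 and shR-749, carried other hairpins against the same gene and were used only to sort the changes. Per the labels, the cells of every group, the mock included, received a plasmid expressing a hairpin RNA and were then purified. The methods give pLKO.1 plasmids, a lipid reagent and puromycin selection without naming shR-467 among the constructs. The names of the 3 hairpins against UNC50 carry the numbers 467, 554 and 749. Neither the labels nor the methods name a clone or more than 1 culture per hairpin.

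Short hairpin RNAs are cut by Dicer into short duplexes, and the guide strand directs an Argonaute protein to matching mRNAs, which are then degraded or translated less. Guides can also lower mRNAs that match them only in part, so that hairpins against 1 target may share some changes and differ in others. UNC50 is a membrane protein of the Golgi apparatus, and the study used the arrays to look for changes in hepatoma cells in which it was lowered. Hepatoma lines such as Hep3B keep part of the liver's program of secreted plasma proteins.

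Expression was read from 1-colour Agilent arrays, on which each spot holds copies of one DNA probe of 60 bases. Signals below are the scanner's processed signals, with background already subtracted, and are given in the order mock, shR-467, shR-554, shR-749 unless another is stated. Differences are log2 differences from the mock array after each array's 75th percentile was subtracted. This percentile was 1120 for the mock and 1390 for shR-554. With 1 array per hairpin there was no replicate check and no test was possible, so genes are described by size. The error given with some differences is the error of the spots, which covers the array surface only and not the spread between cultures. In RNA from a whole culture, fewer cells that express a gene and less RNA per cell cannot be told apart.

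The following 30-base stretches belong to the probes on which the results turn, written 5′ to 3′. The first set shows the targeted gene and a pair of strongly lowered genes of the study's own list. The second set shows genes that moved against the other 2 hairpins.
UNC50: gtgtccactataggatttggctttgtgctg
GAST: agcctatggatggatggacttcggccgccg
AKR1B10: atcctctcatttggaagactatcccttcga
CGA: atcacaaatcttaaatgttttaccaagtgc
KRTAP3-1: aatcttcttaattatttgcacatttgggta
A last set shows pairs of probes that share sequence, so that their signals cannot be taken as independent. Capitals mark the bases at which the members of a pair differ.
RRAS2, probe placed on chromosome 11: tgtatagcttcaggtGctagaattaaaatt
RRAS2, probe placed on chromosome 1: tgtatagcttcaggtActagaattaaaatt
H3F3A: cagaagtccactgaactTctGattcgCaaa
HIST1H3A: cagaagtccactgaactGctTattcgTaaa

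On the hg19 build named in the array files these probes lie at chr2:99227237-99227296 for UNC50, chr17:39872073-39872132 for GAST, chr7:134225799-134225858 for AKR1B10, chr6:87795428-87795487 for CGA and chr17:39164843-39164902 for KRTAP3-1. The probes for CGA, KRTAP3-1 and RRAS2 are placed on the reverse strand and the others on the forward strand. An exon annotation of this build was not used here.

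UNC50, the targeted gene, was lower with every hairpin. Its signal was 5010, 1050, 853 and 947. The level with shR-554 was 13.7% of the mock level, a log2 difference of -2.87 ± 0.20 (error of the spot, 1 spot per array), beside -2.06 with shR-467 and -2.42 with shR-749. The shR-554 array thus held the lowest UNC50 level of the 4. The target gene thus went with the labels of all 3 hairpin arrays.

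Of 58717 spots per array, 67.6% (shR-554) to 73.6% (mock) stood well above background, 0 were saturated, and the median SD between the 10 spots of probes printed 10 times was 0.047 to 0.060 on the log2 scale. The shR-554 array held small patches in which many adjacent spots were bright, and the scanner software had not marked them. Counting a spot as lying in such a bright neighbourhood when at least 3 of its 24 neighbours were at least 2-fold above the same spots on all 3 other arrays, a rule made after the values were seen, 2.49% of the spots of the shR-554 array were affected, beside 0.479% on the mock, 6.51% on shR-467 and 2.82% on shR-749.

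Of 22093 genes whose probe was well above background on both arrays, 2829 (12.8%) differed at least 1.5-fold between shR-554 and the mock. Of these, 1075 (4.87%) were higher and 1754 (7.94%) were lower with shR-554. At 2-fold, 287 genes (1.3%) were higher and 541 (2.45%) were lower, together 828 (3.75%). The median difference over all genes was 0.01 on the log2 scale. A further 2796 genes had a probe well above background on the mock array only, and 328 on the shR-554 array only. Of the 2796, 877 were lower with shR-554 by a bound of at least 1.5-fold, and of the 328, 197 were higher by such a bound. The others may differ by less. Fewer spots stood well above background on the shR-554 array than on the mock (67.6% against 73.6%), and the part of this in the 2 counts was not tested.

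**Figure D1:**
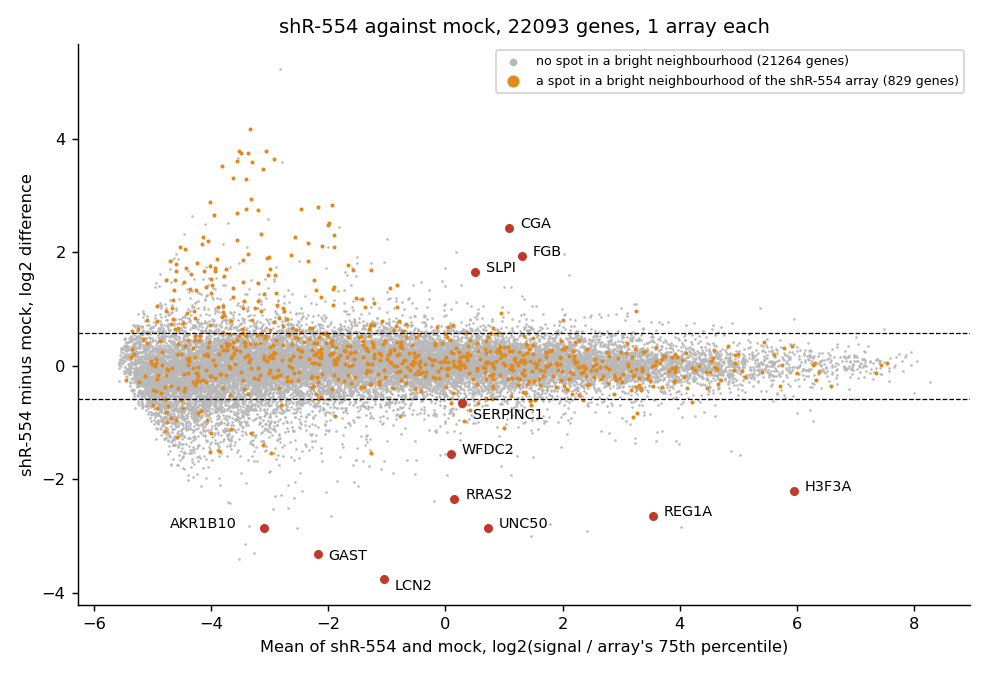
Log2 difference between shR-554 and mock (vertical axis) against the mean scaled log2 signal of both arrays (horizontal axis) for 22093 genes, with dashed lines at 1.5-fold. Orange points are the 829 genes with a spot in a bright neighbourhood of the shR-554 array, which hold 35 of the 50 genes higher by at least 4-fold, and the red points are named genes.

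The shares of rises and falls varied with the signal and with the number of spots. When genes were cut by mean signal into 5 classes of equal size, in the dimmest class 286 were higher and 751 lower by 1.5-fold, with a median difference of -0.12. In the brightest class, 93 were higher and 106 lower, which was 4.5% of them. Probes printed in 1 spot gave 5.26% of genes higher and 7.93% lower, probes printed in 2 spots 3.88% and 7.87%, and probes printed in 10 spots 1.60% and 8.71%. The share of lower genes was thus alike whatever the number of spots, and the share of higher genes was smaller where more spots were printed. The probes in 1, 2 and 10 spots read different genes (16892, 4512 and 689), so these shares do not measure how well rises or falls were read.

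**Figure D2:**
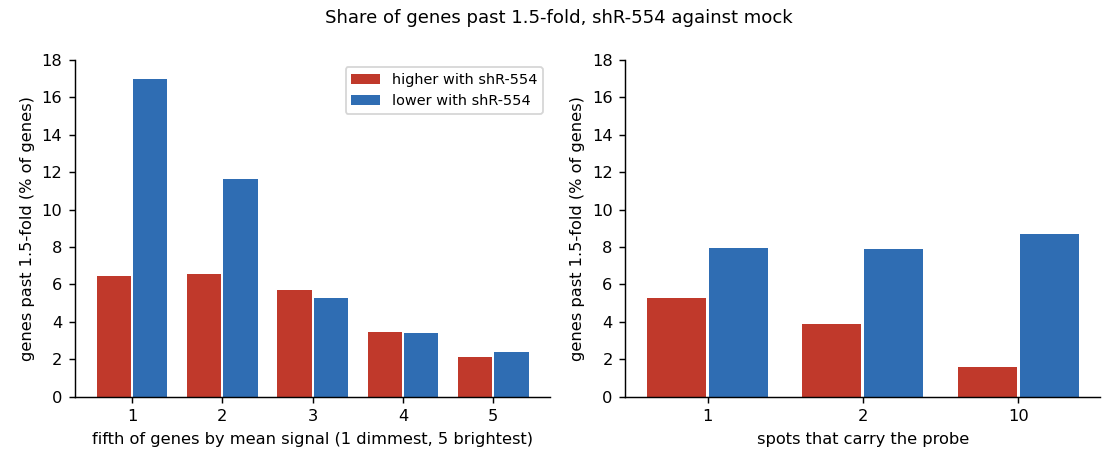
Share of genes past 1.5-fold between shR-554 and mock, in percent of the genes of each class, by class of mean signal, dimmest to brightest (left) and by the number of spots that carry the probe (right). The share of higher genes was 5.26% with 1 spot and 1.60% with 10 spots, while that of lower genes was 7.93% and 8.71%.

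Many of the largest rises lay in bright neighbourhoods. Of the 829 genes with such a spot, 151 were higher and 40 lower by 1.5-fold. They made up 100 of the 287 genes higher by 2-fold and 35 of the 50 genes higher by 4-fold. Among the 328 genes above background on the shR-554 array only, 87 had such a spot, as did 8 of the 10 with the largest bounds. Without these spots, 928 genes were higher and 1718 lower of 21539. HDAC11 (118, 125, 835 and 107), PCP2, RBM20, HBM, C11orf94 and SLC22A7 are among the genes with the largest rises whose single spot lay in such a patch. HDAC11 differed by 0.34 and 0.38 at its other probes, and SLC22A7 was at -0.68. The other RBM20 probes were not well above background with shR-554. These rises are given as values only, and the part of the patches in them was not tested.

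The 2 other hairpins were then used to sort the genes well above background on all 4 arrays. Of 21227 such genes, 2641 (12.4%) were past 1.5-fold with shR-554, 959 (4.52%) higher and 1682 (7.92%) lower. The hairpin shR-467 gave 2202 (10.4%) and shR-749 gave 2435 (11.5%). The 3 comparisons share the 1 mock array, so a high or low mock spot moves all of them the same way. With shR-554, 678 genes (3.19%) were apart, which means past 1.5-fold with shR-554 and less than 0.32 from the mock on the log2 scale with both other hairpins. Of these 246 (1.16%) were higher and 432 (2.04%) lower. Another 219 genes (1.03%) were past 1.5-fold the same way with all 3 hairpins, 119 (0.561%) higher and 100 (0.471%) lower. In 13 genes (0.0612%) each hairpin was past 1.5-fold and shR-554 went opposite to both others, 6 (0.0283%) higher and 7 (0.033%) lower. The remaining genes were shared with 1 other hairpin (762) or lay between these limits (969). Apart genes numbered 661 (3.11%) with shR-467 and 580 (2.73%) with shR-749, so the number for shR-554 was of the same order. Of the same 21227 genes, 43 were opposite to both other hairpins with shR-467 and 10 with shR-749. Of the apart genes of shR-554, 150 were past 2-fold, and 54 of the 246 higher but 9 of the 432 lower ones had a spot in a bright neighbourhood.

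H3F3A, which encodes the replacement histone H3.3, was past 1.5-fold with shR-554 and not with the other hairpins. It was singled out after the values were seen, as a gene with several probes that were all at least 2-fold from the mock and from both other hairpins. Its probe in 2 spots, at chr1:226259602-226259661, gave 50347, 47748, 8559 and 39382, a log2 difference of -2.87. A second probe gave 148000, 130000, 40000 and 115000 (-2.20), and the probe printed above 91500, 86800, 22200 and 75000 (-2.35). The shR-554 array was lowest at all 3 probes. With shR-749 the probes were lower by 0.30 to 0.38, so H3F3A is not counted among the apart genes. The other 15 probes for H3 histones that were above background on both arrays, H3F3B included, lay between -0.57 and 0.54, with a median of 0.04.

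HIST1H3A, a replication-coupled H3 gene, stood among the 10 largest falls with 10100, 8260, 1820 and 6780 (-2.78 ± 0.20). Its probe matched the printed H3F3A probe at 29 of 32 overlapping bases, most of them in the stretch printed above, so that signal of H3F3A at this spot cannot be told apart from its own. No other probe for an H3 gene of the HIST clusters was lower by 1.5-fold.

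RRAS2, a small GTPase related to the Ras proteins, was the largest fall among the apart genes. Its probe in 2 spots gave 2810, 2215, 683 and 3425, and the shR-554 spots read 665 and 702. The log2 difference was -2.35 ± 0.14 with shR-554, -0.15 with shR-467 and 0.27 with shR-749. A second probe gave -2.39, but it overlaps the first over 47 bases with 46 matching and is placed on chromosome 1, so the probes are not independent.

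WFDC2, a small secreted protein of the whey acidic protein family, gave 2050, 1570, 868 and 1939 (-1.55 ± 0.14), and a second probe gave -1.87. FAM151A gave 631, 508, 191 and 537 (-2.04) and -1.62 at its second probe. HMG20B, a subunit of the LSD1 and CoREST histone demethylase complex, gave 16437, 15288, 8460 and 14949 (-1.27), and its other 2 probes were lower by 0.94 and 0.75. In all 3 genes each probe was lower with shR-554 than on the other 3 arrays.

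Among 3534 genes for which at least 2 probes passed the background limit on each of the 4 arrays and no spot in a bright neighbourhood, 91 had every probe past 1.5-fold the same way with shR-554, 35 higher and 56 lower. For 12 of these every probe was also within 0.32 of the mock with both other hairpins, 2 higher and 10 lower. The 10 were RRAS2, WFDC2, HMG20B, STEAP2, C21orf57, PBRM1, ARPP19, CDH2, SSBP3 and CCDC99, and the 2 were KIAA1530 and PAQR3. The SSBP3 probes are placed on different chromosomes, 7 and 2, and whether both read this gene was not tested. CDH2 encodes N-cadherin, PBRM1 a subunit of a SWI/SNF chromatin remodelling complex, and ARPP19 an inhibitor of the phosphatase PP2A in mitosis. The median differences of these 3 were -0.72, -0.78 and -0.77. These 12 genes were found after the values were seen.

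Other genes lower with shR-554 and apart from the other hairpins were these. NUPR1, a stress-inducible nuclear protein, gave 4719, 3890, 2582 and 4355 (-1.18). GTF2E2, a subunit of the general transcription factor TFIIE, gave 1008, 914, 544 and 938 (-1.20). SEMA3A, a secreted guidance cue, gave 790, 741, 338 and 771 (-1.54), with 1 of its 2 spots in a bright neighbourhood. The other 3 arrays lay close together for all 3 genes. FAM104A (-1.61) and ACPT (-1.31) were read from 1 spot. The fall of USP8, a deubiquitinase of endosomes that acts on the epidermal growth factor receptor (EGFR), differed between its spots, which read 320 and 1160 on the shR-554 array against 1210 and 1260 on the mock. The spots of CRYAB and KRT86 also disagreed on the shR-554 array, at 58.8 and 141 and at 37.3 and 94.4.

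Among the rises apart from the other hairpins, where the probe had at least 2 spots and none lay in a bright neighbourhood, the largest was in NAT1, an arylamine N-acetyltransferase, with 985, 880, 2643 and 1105 (1.11 ± 0.14). TUBB3, a beta-tubulin mainly of neurons, gave 1060, 1065, 2715 and 1149 (1.05). IGFBP1, an insulin-like growth factor binding protein secreted by the liver, gave 1210, 1280, 3115 and 1335 (1.05) at a probe in 2 spots. It did not meet the limit on bright neighbourhoods over the 4 arrays. In these genes the shR-554 array was high and the other 3 lay within a narrow range. NAMPT, which makes a precursor of NAD from nicotinamide, gave 0.85 at its probe in 2 spots. Its second probe gave 0.29, beside -0.29 with shR-467 and -0.77 with shR-749. TNK2, a non-receptor tyrosine kinase, gave 0.86 and 0.49. Its second probe gave 0.75 with shR-467 and 0.39 with shR-749, so TNK2 was apart at the first probe only. GSTT2 (0.86), SLC26A2 (0.77), ETS2 (0.77), HOXC6 (0.72) and GPC1 (0.68) were higher by less than 2-fold. GLTP (1.45, at a probe placed on chromosome 11) and SGSM2 (1.43) were read from 1 spot, and a second SGSM2 probe differed by 0.03. FOXP4 had probes that disagreed in direction (1.09 and -0.66).

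**Figure D3:**
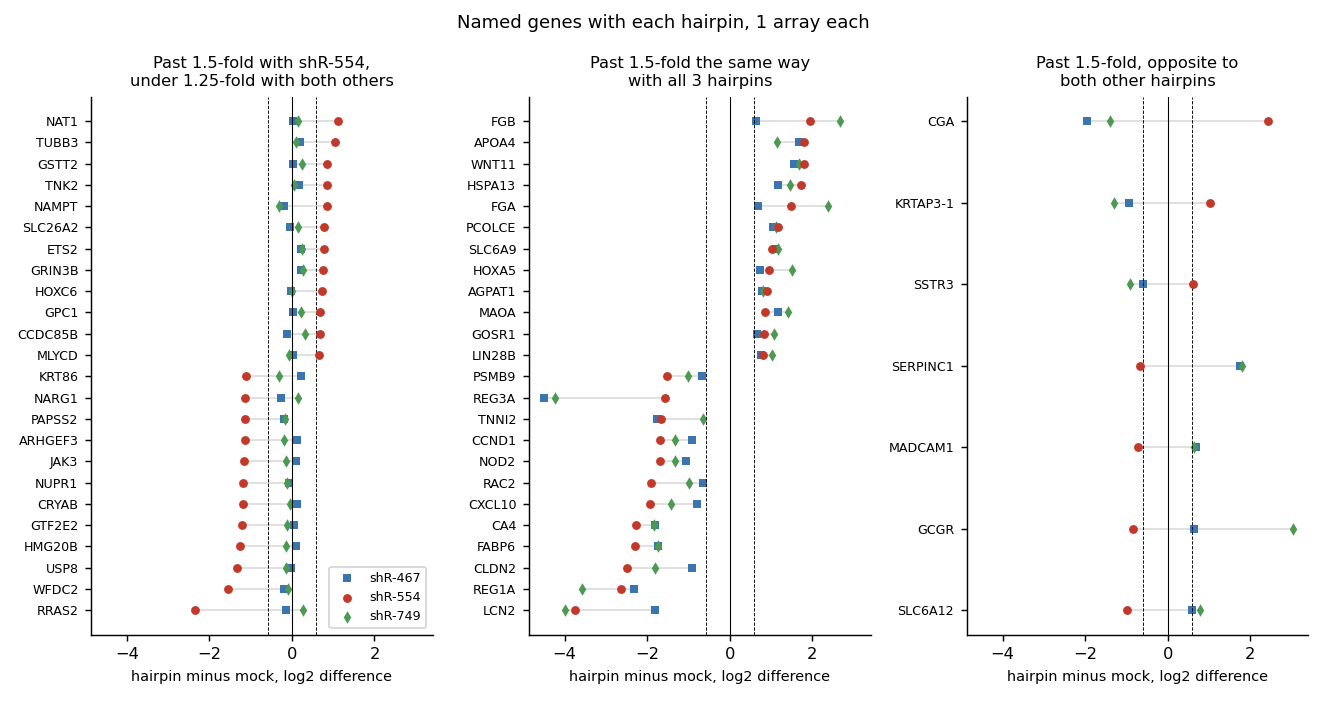
Log2 difference from the mock (horizontal axis) with each of the 3 hairpins for genes apart with shR-554 (left), shared by all hairpins (middle) and opposite with shR-554 (right), 1 array per hairpin. The left and middle panels show probes with at least 2 spots, dashed lines mark 1.5-fold, and CGA and SERPINC1 lie on opposite sides of 0 with shR-554 and with the other hairpins.

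In 13 genes shR-554 moved the level opposite to both other hairpins. CGA, the alpha subunit that the gonadotropins and thyrotropin share, gave 1025, 230, 6831 and 395. Both spots of the shR-554 array were high, at 6600 and 7070. The log2 difference was 2.42 ± 0.14 with shR-554, -1.96 with shR-467 and -1.39 with shR-749.

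KRTAP3-1, a keratin-associated protein of hair, gave 260, 118, 662 and 107 at a probe printed in 10 spots (1.04, -0.94 and -1.29 for shR-554, then shR-467, then shR-749). Its 9 usable spots on the shR-554 array read 621 to 703 and those on the mock 233 to 296, so they did not overlap. A second probe gave 250, 103, 451 and 90.8, a difference of 0.54 with shR-554. SERPINC1, which encodes the anticoagulant antithrombin, was the reverse case with 1709, 5000, 1344 and 6056. It was lower with shR-554 (-0.66 ± 0.08, 10 spots, 1 in a bright neighbourhood) and higher with shR-467 (1.74) and shR-749 (1.81).

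GCGR, the glucagon receptor, gave 143, 193, 98.6 and 1185, MADCAM1 gave 83.2, 117, 62.6 and 130.5, and SLC6A12 gave 210, 278, 132 and 368. All 3 were lower with shR-554 (-0.85, -0.72 and -0.98) and higher with the other hairpins. SSTR3, a somatostatin receptor, was higher (0.61), but its 2 spots differed on the shR-467 array (181 and 557) and on the shR-749 array (179 and 487), and 1 of its shR-554 spots lay in a bright neighbourhood.

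**Figure D4:**
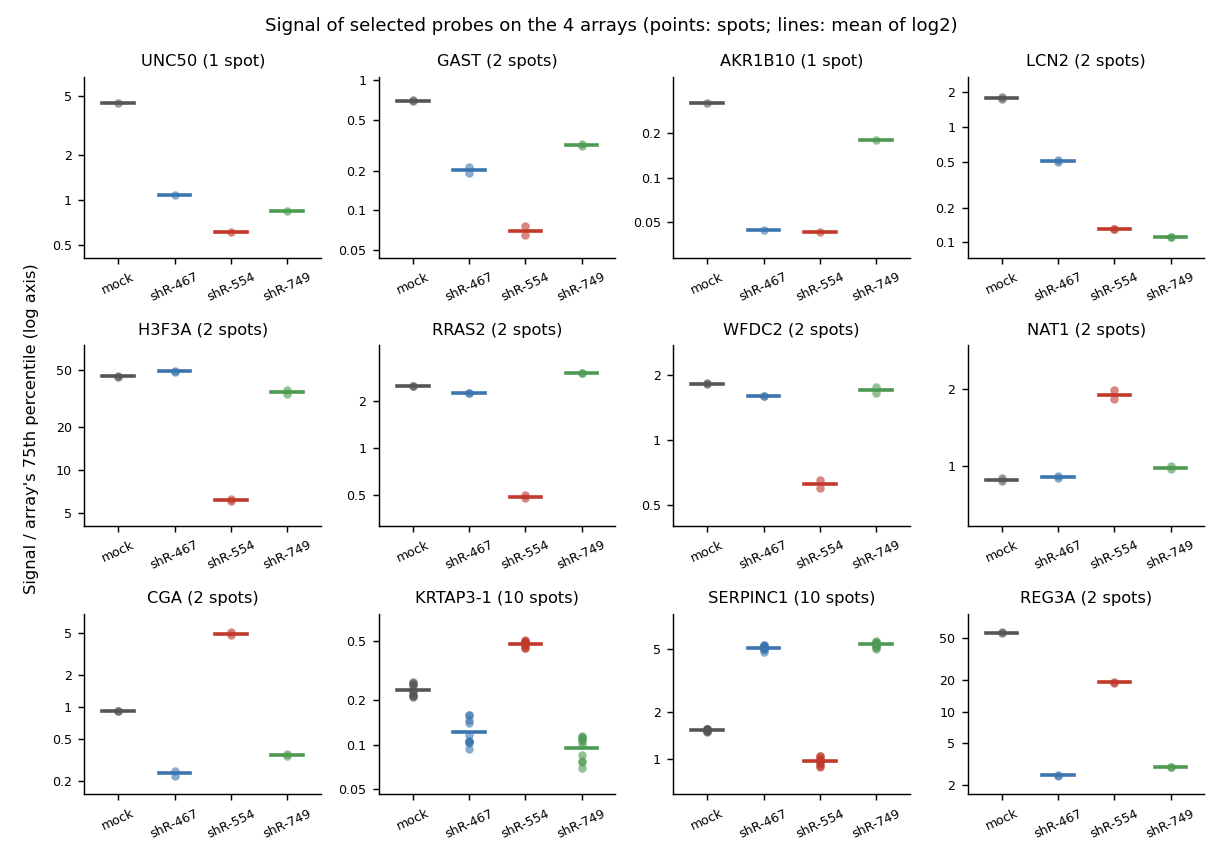
Signal of 12 probes on the 4 arrays, as a multiple of each array's 75th percentile on a log axis; points are spots and lines the mean of their log2 values. UNC50, GAST, AKR1B10 and LCN2 were low with all hairpins, H3F3A, RRAS2 and WFDC2 were low and NAT1 high with shR-554, and CGA, KRTAP3-1, SERPINC1 and REG3A differed in direction or size between shR-554 and the other hairpins.

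The genes lower with all hairpins included the largest falls with shR-554. LCN2, a siderophore-binding protein of the acute phase, gave 1990, 495, 182 and 126 (-3.76 ± 0.15), a 13.6-fold fall and the largest among the genes open to naming. ODAM gave 8650, 2390, 1350 and 649 (-2.99). PIGR, the receptor that carries polymeric antibodies across epithelia, gave 519, 199, 89.0 and 102 (-2.85). All 3 were lowest with shR-554 or shR-749 and less low with shR-467.

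CLDN2, a tight junction protein, gave 414, 191, 91.0 and 119 (-2.50). FABP6, a bile acid binding protein of the ileum, and CA4, a membrane-bound carbonic anhydrase, were at -2.30 and -2.28 with shR-554, and between -1.83 and -1.74 with the others. RAC2 gave -1.91 at its probe in 2 spots and -0.23 at a second probe. ZG16B (-2.39) was read from 1 spot. RIBC1 (-2.53) was also read from 1 spot, and its mock spot lay in a bright neighbourhood. CCL2, a chemokine for monocytes, read 541 with the mock and 18.6, not well above background, with shR-554, and was at least 23.7-fold lower. HOXB9 was at least 14.3-fold lower (327 and 10.3).

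Of the genes of the study's list, which the study chose on these arrays, GAST, AKR1B10, CCND1 and MMP7 were lower by more than 2-fold. GAST, which encodes the hormone gastrin, gave 782, 200, 97.4 and 358, and the shR-554 spots read 90.3 and 105. Its difference was -3.32 ± 0.15, beside -1.77 with shR-467 and -1.14 with shR-749, and was -2.64 in the authors' processed values and -2.60 after another background correction (normexp). AKR1B10, an aldo-keto reductase that is often raised in liver cancer, gave 354, 43.2, 60.4 and 202, with differences of -2.86 with shR-554, -2.84 with shR-467 and -0.82 with shR-749. Its second probe gave -3.02 with shR-554, with 1 of 2 spots in a bright neighbourhood, and after normexp the probes gave -1.83 and -1.86.

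CCND1, which encodes cyclin D1, gave 466, 217, 180 and 187 over 10 spots (-1.68 ± 0.16). MMP7, a matrix metalloproteinase, gave 267, 93.0, 124 and 122 (-1.42). EGF was near background, at 29.3 on the mock and 7.62 on the shR-554 array, where it was not well above background, so it was at least 1.28-fold lower. MUC1 could not be given a direction from these arrays, though the study lists it as lower and reports real-time PCR in support. Its probe in 1 spot gave 89.1, 28.7, 33.1 and 36.9 (-1.74, the shR-554 spot in a bright neighbourhood), and its probe in 2 spots gave 85.1, 116, 195 and 145 (0.89).

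Among genes higher with all hairpins at probes in at least 2 spots, FGB, the beta chain of fibrinogen, gave 1414, 1934, 6719 and 9069 (1.94 ± 0.14). APOA4, an apolipoprotein of intestinal lipid particles, gave 248, 691, 1080 and 554 (1.81). WNT11 gave 52.4, 136, 227 and 168 (1.81), and HSPA13, a member of the HSP70 family, gave 612, 1210, 2525 and 1710 (1.73). APOA4, WNT11 and HSPA13 were highest with shR-554. FGA, the alpha chain of fibrinogen, was higher at all 3 of its probes (1.48, 2.59 and 1.59). SNORA23 (2.45), C20orf196 (2.24), C12orf75 (2.01) and GALR3 (1.98) were read from 1 spot, and the other 2 probes of C20orf196 were at -0.50 and -0.31.

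A few genes were high with shR-554 and not with shR-467. SLPI, a secreted inhibitor of leukocyte proteases, gave 902, 716, 3507 and 505 (1.65 ± 0.14), and was lower with shR-749 (-0.85). CELA3A, a pancreatic elastase named after its values were seen, gave 204, 120, 952 and 148 at the brighter of its probes (1.91) and 39.6, 36.1, 197 and 35.6 at the other. Its near-identical paralog CELA3B gave 134, 66.0, 714 and 109 (2.10) at 1 probe, while its other probe was not well above background with shR-554, and whether the 2 genes contribute separately was not tested. NCR3 (56.0, 52.3, 420 and 336) was the largest rise open to naming at 2.60, but its other probe, in 2 spots, differed by -0.33. THBS4 (1.20) and BAAT (1.19), the enzyme that conjugates bile acids, were higher with shR-554 at probes in 2 spots.

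Gene lists of pathways were then read as counts, beside 12.8% of all genes past 1.5-fold and a median of 0.01. Genes of cholesterol and fatty acid synthesis had the highest median of the 32 lists, 0.45 over 29 genes, with 5 higher and 0 lower. FASN, the fatty acid synthase, gave 20547, 38898, 42125 and 18750 (0.72). SC5DL (1.17), LSS (0.72) and SC4MOL (0.62), enzymes of sterol synthesis, were also past 1.5-fold. The medians of the list were 0.60 with shR-467 and -0.10 with shR-749.

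Secreted proteins of the hepatocyte went both ways. Of 31 plasma protein genes, 5 were higher and 2 lower (median 0.12). AFP, the fetal albumin-like protein, gave 32590, 32585, 81935 and 94749 (1.02), and TTR (0.65), HPX (0.70) and APOA1 (0.60) were also higher, while ALB was at 0.18. Of 25 fibrinogen and coagulation genes, 5 were higher and 3 lower (median 0.23). FGG (1.09) was higher with FGA and FGB, and PLAU, the urokinase plasminogen activator, was lower with 689, 484, 270 and 388 over 10 spots (-1.66). Of 24 acute phase genes, 4 were higher, the fibrinogen genes and HPX, and 3 were lower, LCN2, SAA1 (-1.30) and SAA2 (-1.06).

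Of 22 NF-kappaB targets and chemokines, 0 were higher and 7 lower (median -0.43; -0.38 with shR-467 and -0.76 with shR-749). CXCL10, a chemokine induced by interferon, gave 2224, 1119, 727 and 839 (-1.93), and a second probe gave -1.75. CXCL6 was 2-fold lower, and TNF (-1.34), BIRC3 (-0.96), TNFAIP2 (-0.63), RELB (-0.61) and NFKBIA (-0.60) were the others. Of 25 interferon-stimulated genes, 1 was higher, IFITM1 (0.88), and 5 were lower, with TLR3 the largest (126, 76.3, 56.9 and 90.5, a difference of -1.46). The median of this list was -0.11. None of 13 genes of the RNA interference machinery was past 1.5-fold, and DICER1 was at 0.08.

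Of 8 aldo-keto reductases, 0 were higher and 5 lower (median -0.82), with AKR1B1 (-1.50), AKR1C1 (-1.31), AKR1C3 (-0.86) and AKR1C4 (-0.78) beside AKR1B10. Of 29 cytochrome P450, UGT, SULT and GST genes, 1 was higher and 7 lower (median -0.34). SULT1E1, an estrogen sulfotransferase, gave 1265, 1110, 495 and 906 (-1.67), and CYP3A5 gave 192, 136, 75.9 and 110 (-1.65). The median of this list was 0.20 with shR-467 and -0.10 with shR-749. AKR1B15, a close paralog of AKR1B10, was above background on the mock array and not on the shR-554 array (at least 8.52-fold lower).

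Of 12 REG lectins, trefoil factors and gut hormones, 6 were lower and 1 was higher (median -0.45). REG1A gave 32696, 5674, 6498 and 2765 (-2.64). REG3A was lowered least by shR-554, with 63098, 2450, 26348 and 3395, a difference of -1.57 beside -4.49 with shR-467 and -4.23 with shR-749. REG3G gave 1160, 89.5, 388 and 61.6, and shR-554 was again the highest of the hairpins. TFF1 was lower (-1.08) and TFF3 higher (0.59). Of 20 Wnt and beta-catenin targets, 6 were lower, 4 of them CCND1, MMP7, REG1A and REG3A, and the others LGR5 (-1.02) and NKD1 (-0.69).

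**Figure D5:**
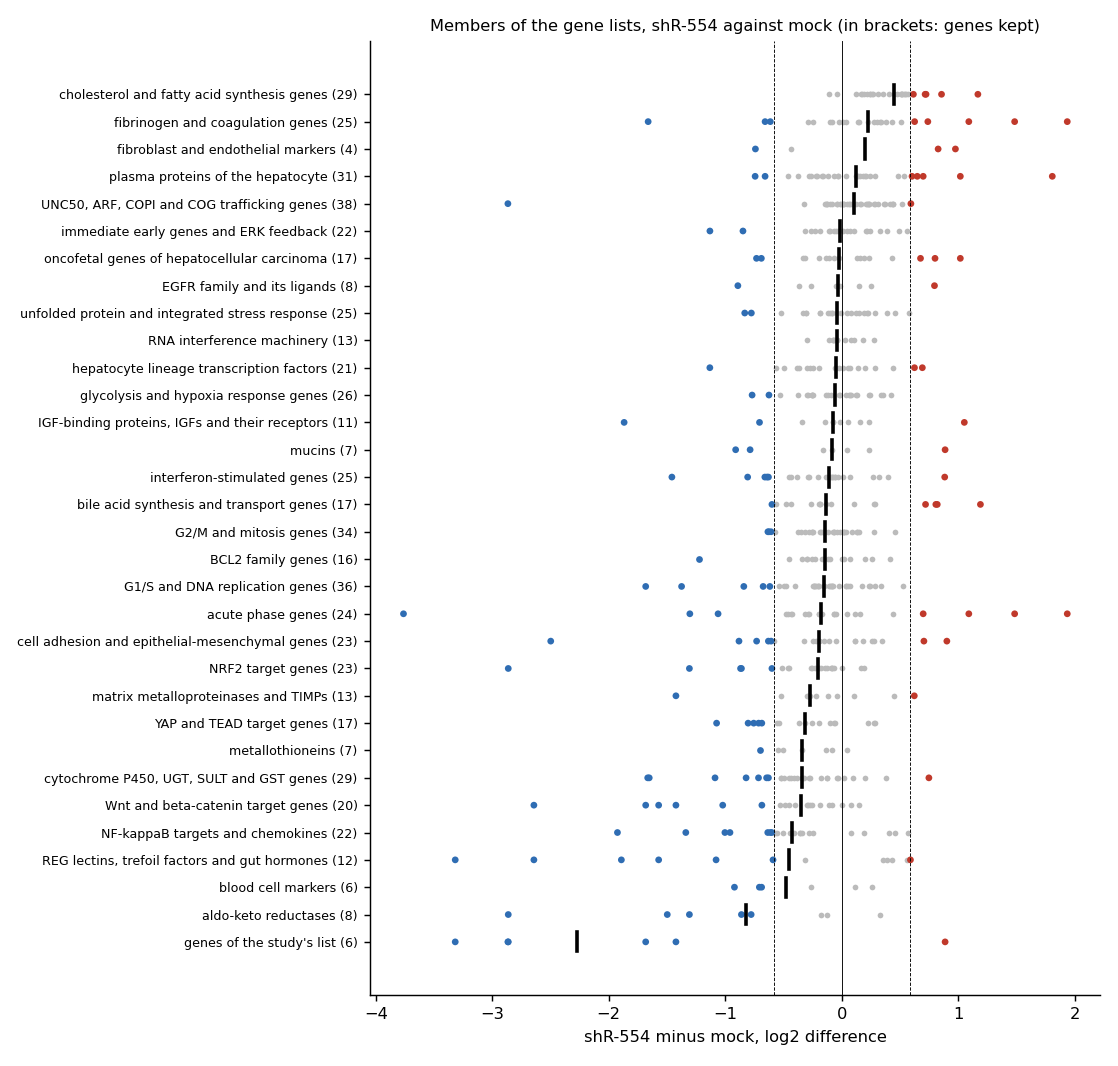
Log2 difference between shR-554 and mock (horizontal axis) for the members of 32 gene lists, with the number of genes kept in brackets. Each point is a gene, red and blue points are past 1.5-fold (dashed lines), black ticks are list medians, and the list of cholesterol and fatty acid synthesis has the highest median (0.45).

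Of 38 trafficking genes, UNC50 was lower and 1 was higher, GOLGA2 (0.59), whose mock spots read 231 and 369, and the median was 0.11. Of 8 EGFR family genes and ligands, AREG (amphiregulin) was higher with 8343, 4472, 17986 and 13746 (0.80) and EREG (epiregulin) lower with 2105, 968, 1408 and 1880 (-0.89). EGFR itself was at -0.26. Of 22 immediate early and ERK feedback genes, DUSP6 (-1.13) and SPRY4 (-0.85), both inhibitors of ERK signalling, were lower and 0 were higher.

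Of 36 genes of the G1/S transition and DNA replication, 5 were lower and 0 higher (median -0.15). Beside CCND1 these were CDKN1C (-1.37), a CDK inhibitor, RRM2 (-0.84), CDK6 (-0.67) and MCM7 (-0.62). Of 34 genes of G2/M and mitosis, 3 were lower and 0 higher (median -0.14). Of 17 YAP and TEAD targets, 5 were lower and 0 higher (median -0.32), with CTGF at -0.71 and CYR61 at -0.69. IGFBP7, a secreted binding protein, gave 264, 246, 89.8 and 100 (-1.87).

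Of 17 bile acid genes 4 were higher and 1 lower, of 21 hepatocyte transcription factors 2 were higher and 1 lower (GATA6, -1.13), and of 25 genes of the unfolded protein response 0 were higher and 2 lower. Of 23 NRF2 targets 5 were lower, 3 of them aldo-keto reductases. Of 23 adhesion and epithelial-mesenchymal genes 2 were higher and 5 lower. Of 26 glycolysis and hypoxia genes 2 were lower, of 16 BCL2 family genes 1, of 7 metallothioneins 1 and of 13 metalloproteinases and TIMPs 1, with 1 higher. Of 11 IGF axis genes 1 was higher and 2 lower, of 17 oncofetal genes 3 and 2, and of 7 mucins 1 and 2. The mucin counted as higher was MUC1, read from its probe in 2 spots (0.89), and its other probe was lower (-1.74).

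The markers of the cell line were bright on every array, with ALB at 244340 to 344160 and GPC3 at 41848 to 64426. Of 12 fibroblast and endothelial markers, 4 were above background on both arrays, with VWF at -0.74 and LUM (126 and 276) and CDH5 (77.5 and 189) higher with shR-554. Collagen COL1A1 was at 5.18 to 11.5 on all arrays. Of 11 blood cell markers, 6 were above background on both arrays, 3 of them lower and 0 higher. CD14, a monocyte marker that hepatocytes also express, was bright on every array (1750, 2743, 2595 and 1820), and HBB was at 8.64 to 15.8. Their part in the results was not tested.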

How the data were processed

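RNA from 4 Hep3B cultures (mock, shR-467, shR-554, shR-749, 1 array each) was hybridised to Agilent arrays. The authors deposited the output of Agilent Feature Extraction 10.7.1.1, in which each spot's intensity is given raw and background-subtracted, and a table of processed log2 values, whose normalization is not stated in the sources used here.

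From the deposited intensity, the log2 processed signal minus the array's 75th percentile over spots other than controls was taken. Outlier spots by the software were dropped, and each probe took the mean of its spots. Probes well above background on both arrays were kept, 26767 for 22093 genes. A gene was read from its kept probe of highest mean. Of these genes, 14024 matched a RefSeq symbol or synonym. The brightness of a probe over background limits the precision, and 1 array per group limits it more. With no residual degrees of freedom no test was made, and genes were called by size alone (1.5-fold, the study's own limit). The error of the spots is the SD between spots for probes with 10, and otherwise the software's error of the signal divided by the root of the number of spots. A bound ("at least") is set against the higher of the dim probe's signal and the lowest signal well above background on its array.

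The members and lists were chosen with earlier results of these data known. Named were the study's list, the 10 largest rises and falls, the 8 apart, 5 shared and 5 opposite genes in each direction, and list members. The largest, apart, shared and opposite genes had a RefSeq name and, on all 4 arrays, at least 2 times the lowest signal well above background. The study's list and the list members were not held to this limit, and EGF, AKR1B10 and 1 MUC1 probe fell short of it on some arrays. Genes with at least 2 spots or several probes were added after the values were seen.

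Alternatives were quantile normalization, median scaling, normexp (offset 50) with quantile normalization, the authors' log2 table, low signals raised, changed filters on dim probes, outlier spots retained, averages across the probes of a gene, 2-fold, and other limits. Leaving out bright neighbourhoods or probes in 1 spot was added after seeing the data. A few genes of the lists are counted but not reported by name here. Steps were tested on simulated data. Python 3.11.15, numpy 2.4.6, pandas 2.3.3, scipy 1.17.1, matplotlib 3.10.9, R 4.3.3 and limma 3.58.1 were used.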

Additional observations from a re-analysis of the deposited data

Results flagged for a closer look

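In 7 named genes the shR-554 array moved one way from the mock and both other hairpin arrays the opposite way, each by at least 1.5-fold. The log2 differences with shR-554 were 2.42 for CGA, 1.04 for KRTAP3-1, 0.61 for SSTR3, -0.66 for SERPINC1, -0.72 for MADCAM1, -0.85 for GCGR and -0.98 for SLC6A12. With 1 array per hairpin the difference between hairpins was not tested.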

How the results depend on the processing

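UNC50 stayed lower with shR-554 by a log2 difference of -2.92 to -2.83 under every setting tried. The 2829 genes past 1.5-fold (of 22093) numbered 1210 of 22092 after normexp with quantile normalization. They numbered 5234 of 25222 with probes above background on either array and 9003 of 34809 with no filter on dim probes. They numbered 1506 of 14024 with names matching RefSeq, 632 of 5551 with probes in at least 2 spots and 828 of 22093 at 2-fold. The share of them that was lower, 62.0%, was 53.5% after quantile normalization, 74.0% with probes above background on either array and 76.8% with no filter. The 678 apart genes became 386, 1030, 1345, 154 and 150 after normexp, with either array, with no filter, with at least 2 spots and at 2-fold, and 1488 when the other hairpins had to stay under 1.5-fold. In the same order the 219 shared genes became 122, 453, 998, 77 and 58, and the 13 opposite genes 4, 48, 123, 8 and 1. The genes sorted numbered 21227, 25221, 34805, 5467 and 21227 in that order, beside 21227 in the main setting. Fewer or more genes enter with another filter, and the cause of the lower number after normexp was not tested. Leaving out bright neighbourhoods, chosen after seeing the data like the limit of 2 spots, gave 2646 of 21539 genes past 1.5-fold. Of 19317 genes then sorted, 596 were apart, 187 shared and 12 opposite. Normexp moved 20 named probes by over 1.5 times, all 20 nearer to 0, among them those of GAST (-2.60), AKR1B10 (-1.83 and -1.86), PIGR (-2.03), CLDN2 (-1.72), FABP6 (-1.53), CA4 (-1.54), IGFBP7 (-1.20) and WNT11 (1.02), and the authors' processed values moved GAST to -2.64. The mean over probes moved 10, among them C20orf196 (0.48), NCR3 (1.13) and RAC2 (-1.07). The MUC1 probe in 2 spots went from 0.89 to -0.43 when the probes of the gene were averaged. No other probe that was put through the settings singly changed sign. These were probes of the study's list, of the largest, apart, shared and opposite genes, and of the genes added for having at least 2 spots. Genes named only as list members or for their several probes, H3F3A among them, were not checked singly. The median of the REG, trefoil and gut hormone list, -0.45, was -0.25 after quantile normalization and -0.10 after normexp, and that of the bile acid list went from -0.14 to 0.07 after quantile normalization. No paired analysis was possible because each group had 1 array. For the same reason no replicate could be left out, and a block for slide or scan could not be fitted.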
